A study of Danio rerio with 4 samples.

Results

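The genes described here encode 3 histones measured in the zebrafish ovary: the linker histone h1m (ENSDARG00000102892), the H2A.X gene h2ax1 (ENSDARG00000068995) and the core histone gene hist2h2l (ENSDARG00000068996). They were taken by identifier from 35066 Ensembl rows, and were picked because h1m was higher after either phthalate alone while h2ax1 and hist2h2l went with dibutyl phthalate (DBP). That choice used the levels themselves, so the levels and ratios of these genes are given as a description and no test rests on them. Ovarian mRNA of wild-type AB strain females, 5 months old, was sequenced after 30 days with DBP, with its branched isomer diisobutyl phthalate (DiBP) or with both compounds, and from a control. Each of the 4 groups has 1 library, so there is no replicate error and no difference below has a p-value. The dose, the vehicle and the number of fish behind each library are not stated in the labels.

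Linker histones bind the DNA that enters and leaves the nucleosome, and core histones of the H2A, H2B, H3 and H4 classes form the nucleosome itself. Growing oocytes store histone mRNA and protein for the cleaving embryo, and in many vertebrates the egg uses its own linker histone before somatic H1 takes over; h1m is the zebrafish gene of that kind. H2A.X is an H2A variant whose tail is phosphorylated beside DNA breaks, and h2ax1 is one of several zebrafish genes for it. The symbol hist2h2l places that gene among the H2 histones, and neither the files nor the reference table say whether it is an H2A or an H2B. Most core histone genes of dividing cells make mRNA without a poly(A) tail, and whether poly(A) RNA was selected for these libraries is not stated.

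The levels are in FPKM, a fragment number scaled by transcript length and sequencing depth, which can be compared between genes. Summed over all rows they came to 572398 with DBP, 598063 with DiBP, 512635 with both compounds and 534379 in the control. Absolute depth is unknown. Steps between low values gave a depth relative to control of 1.05 with DBP, 0.913 with DiBP and 1.02 with both compounds. These rest on 134 of 1343, 138 of 1275 and 129 of 1477 rows low in both libraries. Only ratios near equal depth were searched, so a large difference in depth could not have shown. Rows above 0 numbered 31775 with DBP, 30361 with DiBP, 31315 with both compounds and 28944 in the control. Ratios were taken as log2 of FPKM + 1, so that differences between low values come out too small, and were compared over the 13859 loci that averaged at least 1 FPKM. All 3 histone genes passed that filter, and none shares its values with another row. The egg-coat gene zp2.1, a marker of the oocyte, shares its values with other zp2 rows, and that locus was at 4092 FPKM in the control. In whole ovary, more cells of a type and more RNA per cell cannot be told apart, so the label of oocyte histone could not be checked beyond the tissue.

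The linker histone h1m was the most abundant of the 3 genes in every library. Its level was 1453 FPKM with DBP, 1889 with DiBP, 427 with both compounds and 531 in the control. The single exposures stood apart from the combined library and the control, which lay close together. In the order of levels over the measured loci h1m was at place 23 in the DBP library and 16 in the DiBP library, against 125 in the combined library and 113 in the control. The log2 ratio to control was 1.45 (DBP), 1.83 (DiBP) and -0.31 (both compounds). In plain FPKM the levels were 2.74, 3.56 and 0.805 times that of the control. This one gene held 0.254% of the summed FPKM of the DBP library and 0.316% of the DiBP library, against 0.0833% of the combined library and 0.0993% of the control. Between the single exposures, DiBP over DBP, the log2 ratio was 0.38, less than the 2-fold size used here as the limit for naming a difference.

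The H2A.X gene h2ax1 had the widest range. Its level was 169 FPKM with DBP, 19.6 with DiBP, 133 with both compounds and 7.81 in the control. Both libraries exposed to DBP were high, and the DiBP library lay between them and the control but nearer to the control. On the log2 scale the ratio to control was 4.27 (DBP), 1.23 (DiBP) and 3.93 (both compounds), or levels of 21.7, 2.51 and 17.0 times that of the control. In the order of levels the gene was at place 442 in the DBP library and 505 in the combined library, against 3921 in the DiBP library and 7069 in the control.

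The core histone gene hist2h2l followed the same order at lower levels. It was at 27.3 FPKM with DBP, 4.86 with DiBP, 26.9 with both compounds and 2.69 in the control. The DBP and combined libraries were almost equal, and both were far above the other pair. Its log2 ratios to control were 2.94 (DBP), 0.67 (DiBP) and 2.92 (both compounds), so only DiBP stayed within the 2-fold limit. The level of h2ax1 was 6.21 times that of hist2h2l with DBP, 4.03 times with DiBP, 4.95 times with both compounds and 2.90 times in the control, so the gap between both genes was wider in every exposed library.

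**Figure D1:**
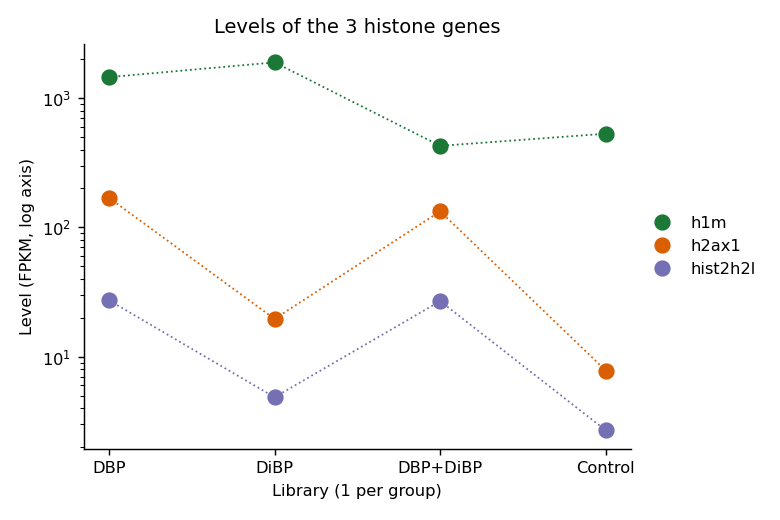
Level of each histone gene in FPKM (log axis) in the DBP, DiBP, combined and control libraries, 1 point per library, joined by dotted lines to guide the eye. The points of h1m are high in the single exposures (1453 and 1889 FPKM), and those of h2ax1 and hist2h2l are high in the DBP and combined libraries.

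All 3 genes were at least 2-fold higher in the DBP library than in the control, where 4.81% of all measured loci were. In the DiBP library h1m and h2ax1 passed that limit beside 7.25% of loci, and in the combined library h2ax1 and hist2h2l did beside 3.48%. These shares are background only, since the genes were chosen on the same ratios. Ranked from the highest ratio to control down, h2ax1 was at place 14 (DBP), 682 (DiBP) and 29 (both compounds). The places of hist2h2l were 53, 1860 and 69 in that order, and those of h1m were 332, 279 and 10486. The median ratio of all loci was 0.01 (DBP), -0.06 (DiBP) and -0.08 (both compounds).

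At the 2-fold limit these patterns were uncommon, which is description only, since the genes were chosen for them. By order alone, both DBP-exposed libraries were above both others at 11.2% of loci, and both single exposures at 25.3%. Both DBP-exposed libraries were at least 2-fold above both others at 42 loci, or 0.303%, among them h2ax1 and hist2h2l. Both single exposures were at least 2-fold above both others at 77 loci, or 0.556%, and h1m was one of them.

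**Figure D2:**
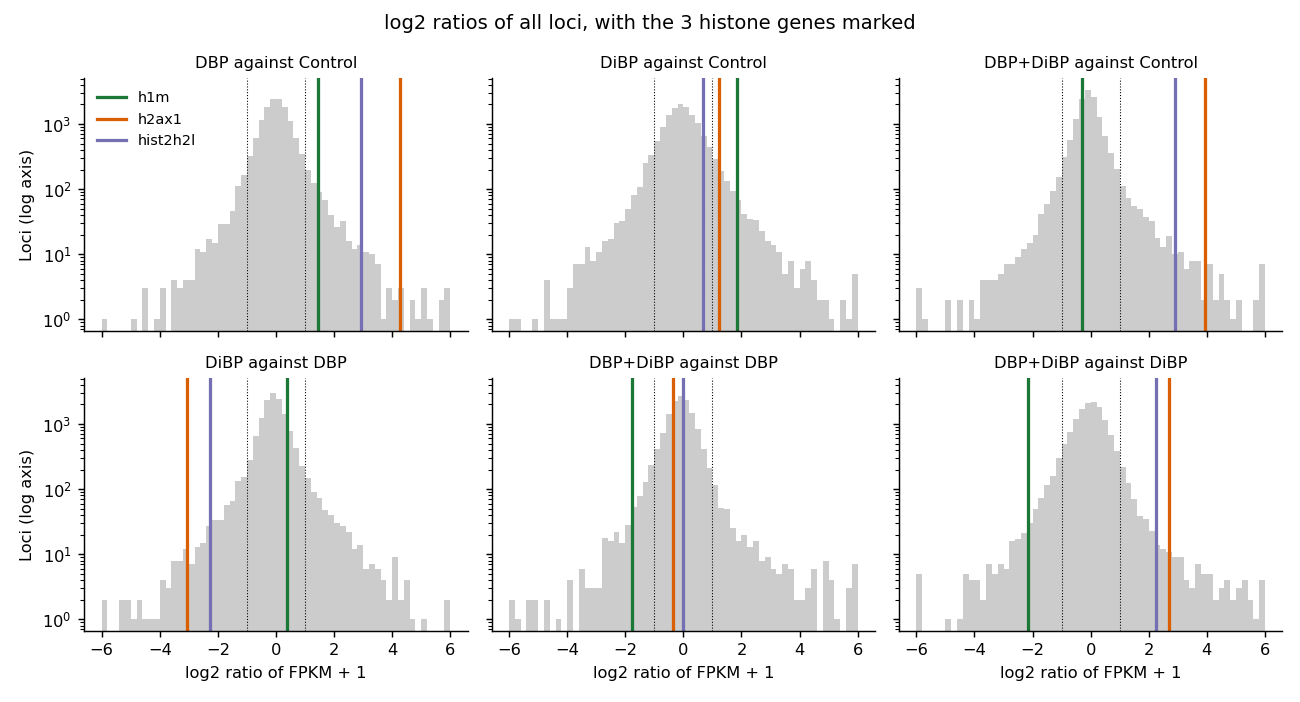
Number of loci (log axis) by log2 ratio of FPKM + 1 in bins of equal width for the 6 pairs of libraries, with values past the ends drawn in the last bins, dotted lines at 2-fold and coloured lines at the histone genes. The lines of h2ax1 (4.27) and hist2h2l (2.94) lie in the upper tail for DBP against control, and h1m lies in the lower tail where the combined library is set against either single exposure.

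DBP and DiBP share a molecular formula and differ in whether the butyl chains are straight or branched, and their libraries were taken at the same 30 days. Since the doses are not given, their values stand side by side. The level of h2ax1 was 19.6 FPKM in the DiBP library and 169 FPKM in the DBP library, a log2 ratio of -3.05. For hist2h2l the level was 4.86 FPKM in the DiBP library and 27.3 FPKM in the DBP library, a log2 ratio of -2.27. For h1m it was 1889 FPKM in the DiBP library and 1453 FPKM in the DBP library, the opposite order within the 2-fold limit. A level at least 2-fold lower in DiBP than in DBP was found for both H2 genes and for 4.24% of loci, and a level at least 2-fold higher for none of the 3 genes and 3.98% of loci. No interval of these differences can be given with 1 library each.

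Adding the second compound went with different values for h1m and for the H2 genes. The level of h1m was 427 FPKM in the combined library and 1453 FPKM in the DBP library (log2 ratio -1.76), where 4.54% of loci were at least 2-fold lower. That of h2ax1 was 133 FPKM in the combined library and 169 FPKM in the DBP library (log2 ratio -0.35), and that of hist2h2l was 26.9 FPKM and 27.3 FPKM in the same order (log2 ratio -0.02, within -0.02 to 0.27 over the scalings tried). So h1m alone was lower than with DBP by the 2-fold limit. None of the 3 genes was at least 2-fold higher there, beside 2.76% of loci. Against the DiBP library, h1m was at 427 FPKM in the combined library and 1889 FPKM in the DiBP library, a log2 ratio of -2.14, beside 5.97% of loci at least 2-fold lower. There the H2 genes had positive log2 ratios, 2.70 for h2ax1 and 2.25 for hist2h2l, beside 4.41% of loci at least 2-fold higher.

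The other histone genes were taken as a family, 29 rows found by symbol or by a RefSeq synonym, which collapse to 23 measured loci. Their median log2 ratio to control was 0.00 (DBP), 0.52 (DiBP) and -0.09 (both compounds). The sign of the DBP and combined medians depended on the setting, since the DBP median was -0.07 with equal totals and the combined one 0.04 when scaled to the oocyte list. At least 2-fold higher than control were 2 of the 23 with DBP (zgc:113984 among them), 2 with DiBP (h2ax2 and the locus shared by h1l1 and hist1h2a8) and 0 with both compounds, beside 4.81%, 7.25% and 3.48% of all loci. At least 2-fold lower were 0 of the 23 in each exposed library, where 3.31% of all loci were lower with DBP, 7.04% with DiBP and 3.23% with both compounds. Neither 2-fold pattern described above for the 3 genes was met by any of the 23, beside 0.303% and 0.556% of all loci. With shares this small, none among 23 loci is near the background. Between exposed libraries, 4 of the 23 were at least 2-fold higher in DiBP than in DBP, beside 3.98% of all loci. Lower by 2-fold in the combined library were 3 of the 23 against DBP, beside 4.54%, and 7 against DiBP, beside 5.97%. In these pairs 0 of the 23 passed the limit the other way. A lower level in the combined library than in DiBP was thus not particular to h1m among histone loci.

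Among linker histones h1m made up nearly all of the measured level. Of the summed FPKM of 6 H1 loci it held 99.2% with DBP, 99.1% with DiBP, 98.3% with both compounds and 98.7% in the control. Of the other H1 loci, histh1l1 was at 6.51 FPKM with DBP, 7.02 with DiBP, 4.01 with both compounds and 4.10 in the control. It had the single exposures above the other libraries, as h1m did, at far lower levels and within the 2-fold limit. The row h1l1 shares its values with an H2A row, hist1h2a8, so its level (6.77 FPKM in DiBP and 1.27 in the control) belongs to neither alone.

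Among the H2A genes, h2af1al was by far the most abundant histone and differed by less than 2-fold from control in each exposed library. It was at 8679 FPKM with DBP, 13176 with DiBP, 9973 with both compounds and 11991 in the control, the first locus of all in 3 libraries and the second in the combined one. H2AZ2, the H2A.Z variant, was at 309 FPKM with DBP, 237 with DiBP, 117 with both compounds and 165 in the control, which puts both single exposures above the rest. The H2B gene H2BK1 was at 242, 430.1, 180.1 and 245 FPKM in that order, so that the DiBP library alone stood out.

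The H3 genes of the replacement variant H3.3, which is laid down outside replication, differed by less than 2-fold from control. Their most abundant row, h3f3a, was at 757 FPKM with DBP, 657 with DiBP, 514 with both compounds and 457 in the control. A second row, h3f3d, was at 256, 287, 132 and 170.0 FPKM in that order. H3-3B, at 27.3, 18.5, 24.7 and 22.3 FPKM, was the one other histone locus with both DBP-exposed libraries above both others, and its differences were small. RefSeq records zgc:113984 under an H3 gene. It was at 308 FPKM with DBP, 198 with DiBP, 103 with both compounds and 130.2 in the control. More abundant was si:dkeyp-46h3.6, recorded under the same H3 gene, whose values are shared with other rows. It was at 462, 557, 464 and 614 FPKM in that order, below control in every exposed library. Its log2 ratios to control were -0.41 (DBP), -0.14 (DiBP) and -0.40 (both compounds). The H3 row h3f3b.1 was at 43.6, 37.4, 42.5 and 43.6 FPKM, and hist2h3c was at 4.18, 7.44, 4.77 and 4.48 FPKM. On shorter lists by symbol the medians for DBP, DiBP and the combined library were 0.93, 0.60 and 0.30 over 2 linker histone loci other than h1m, -0.10, 0.04 and -0.24 over 4 H2A variant loci (0.42 for DBP at a mean of at least 5 FPKM) and 0.43, 0.15 and 0.05 over 4 H3 variant loci. Genes of this family have near-identical copies, and how reads that match several copies were counted is not stated, so single rows are uncertain.

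Taking only the order and not the size, both single exposures lay above both other libraries at 10 of the 23 other histone loci, beside 25.3% of all loci. At a mean of at least 5 FPKM the count was 6 of 13. The share of all loci was not taken at that level, so nothing is read from that count. The order seen for h2ax1 and hist2h2l was met by 1 of the 23, beside 11.2% of all loci.

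**Figure D3:**
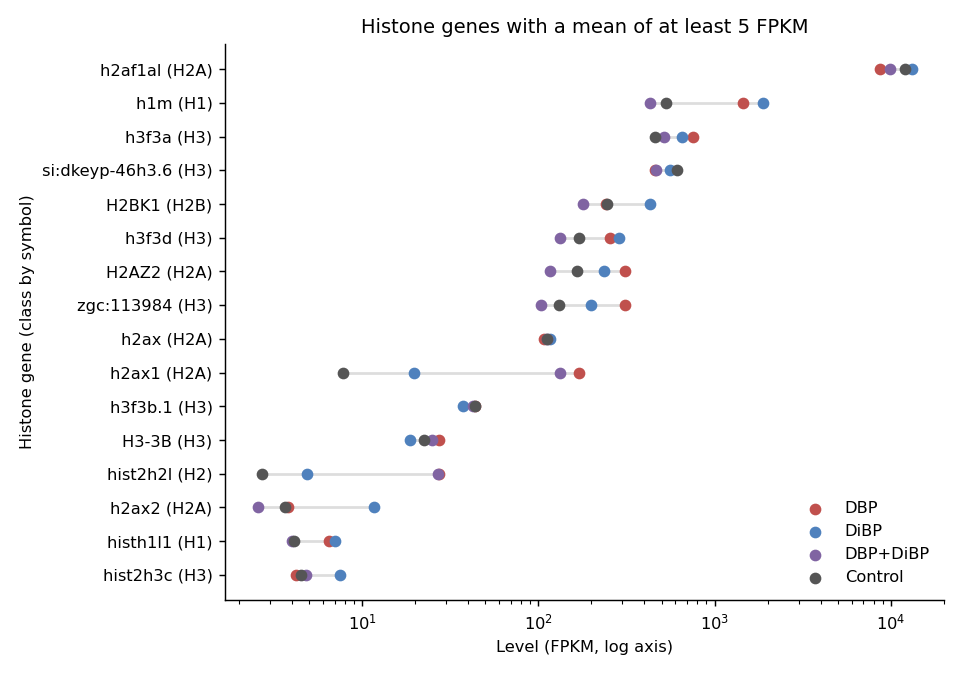
Level in FPKM (log axis) of every histone gene with a mean of at least 5 FPKM, 1 point per library, with the histone class by symbol in brackets and a grey bar over the range. The bars of h2ax1 (7.81 to 169 FPKM) and hist2h2l (2.69 to 27.3 FPKM) are the longest, and h2ax hardly spreads.

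The H2A.X genes can be set against each other because FPKM is scaled by length. The row h2ax was at 107 FPKM with DBP, 116 with DiBP, 112 with both compounds and 111 in the control. The row h2ax2 was at 3.78, 11.7, 2.56 and 3.63 FPKM in that order, highest in DiBP. The level of h2ax1 was 1.58 times that of h2ax in the DBP library and 1.18 times in the combined library, against 0.169 times in the DiBP library and 0.0702 times in the control. As a share of all 3 rows h2ax1 held 60.5% with DBP, 13.3% with DiBP, 53.7% with both compounds and 6.37% in the control. The summed level of the 3 rows was 280.2 FPKM with DBP, 148 with DiBP, 248 with both compounds and 123 in the control. By these rows the higher h2ax1 was not offset by a lower h2ax. How reads that match several copies were counted is not stated, so the shares and sums carry the same uncertainty as the single rows.

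In the RefSeq annotation of assembly GRCz12tu, which is not the build of these files, hist2h2l and h2ax1 are direct neighbours with no entry between them, and their entries do not overlap. The library kit and counting are not stated to use strand, so reads that run from one gene into the other could not be told apart. The nearest 5 genes on each side that matched a single row were set beside the pair. Of these 10 genes 6 were measured, and 0 of the 6 differed from control by 2-fold in any exposed library. Shares of the whole measured set past the 2-fold limit were 4.81% up and 3.31% down (DBP) and 7.25% up and 7.04% down (DiBP). For the combined library the shares were 3.48% up and 3.23% down, so 0 of 6 is near the background. In the 6 neighbours the log2 ratios ran from -0.16 to 0.73 for DBP and from -0.24 to 0.10 for DiBP. For the combined library they ran from -0.27 to 0.57. ZPR1, a zinc finger gene next to h2ax1, gave the top value for DBP and for the combined library. It was at 35.0 FPKM with DBP, 19.3 with DiBP, 31.2 with both compounds and 20.7 in the control, so both libraries with DBP lay above the others, within the 2-fold limit.

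Around h1m, 6 of 10 neighbours were measured. Of the 6, 0 differed 2-fold from control in either single exposure, where h1m was high, which is near the shares of all loci just given. In the combined library 2 of the 6 were at least 2-fold higher, beside 3.48% of all loci. They were ephb4a (3.70 FPKM against 0.918 in the control) and her7 (9.22 FPKM against 3.79).

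**Figure D4:**
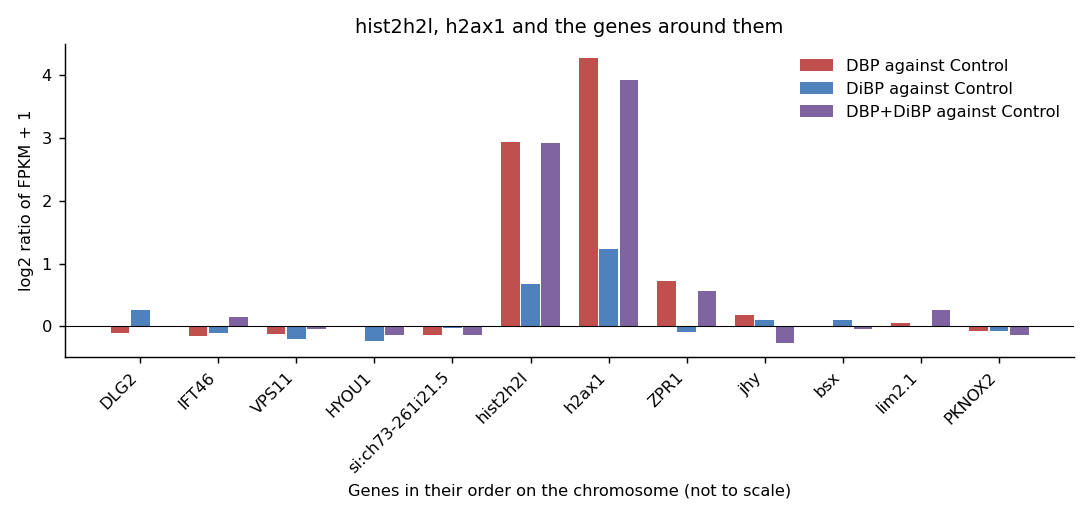
log2 ratio of FPKM + 1 to control for hist2h2l, h2ax1 and the 5 named genes on each side, in the order of the RefSeq annotation, with 1 bar for each exposed library. The bars of the histone pair reach 4.27, while no measured neighbour passes 0.73.

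The genes nearest in pattern to each histone were found by the distance between log2(FPKM + 1) values of the 4 libraries. Each value was centred on its gene's mean, and nothing about function or control follows from the distance. The added 1 makes differences between low values come out too small. A gene near 0 can thus lie near a histone gene while its plain FPKM ratios are much wider. For h1m the nearest genes were PSME1 (distance 0.33), a proteasome activator subunit, and cenpo, a kinetochore gene. After them came a row of TMEM179, tmprss15 and CYP19A1, the aromatase that makes oestrogen. The kinetochore gene cenpo was at 25.6 FPKM with DBP, 36.1 with DiBP, 9.79 with both compounds and 9.42 in the control. CYP19A1 was at 3.65, 4.18, 0.837 and 0.677 FPKM in that order. Both repeat the split between single exposures and the rest, and there were 22 loci of any name as near to h1m as CYP19A1 or nearer.

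For hist2h2l the nearest gene was FKBP6 (distance 0.43), which in mice is needed for meiosis in the male germ line. It was at 20.3 FPKM with DBP, 4.78 with DiBP, 17.3 with both compounds and 1.81 in the control. After it came mpzl1l, NHLRC3, a row of KYAT3 and VPS9D1, the last at 24.5 and 21.9 FPKM in the libraries with DBP and 5.36 FPKM in the control. For h2ax1 the nearest was a row of the potassium channel KCNK5 (distance 0.94), at 9.57, 0.0723, 12.1 and 0.0220 FPKM, followed by FKBP6, mpzl1l, kcnn1b and fabp4a. Of all other loci hist2h2l was the second nearest to h2ax1, and h2ax1 was at place 19 from hist2h2l. From h1m they were far, at distances of 3.99 and 3.29. The pair was picked for going with DBP and h1m for the single exposures. The places and distances among the 3 genes therefore go back to that choice and are description only.

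**Figure D5:**
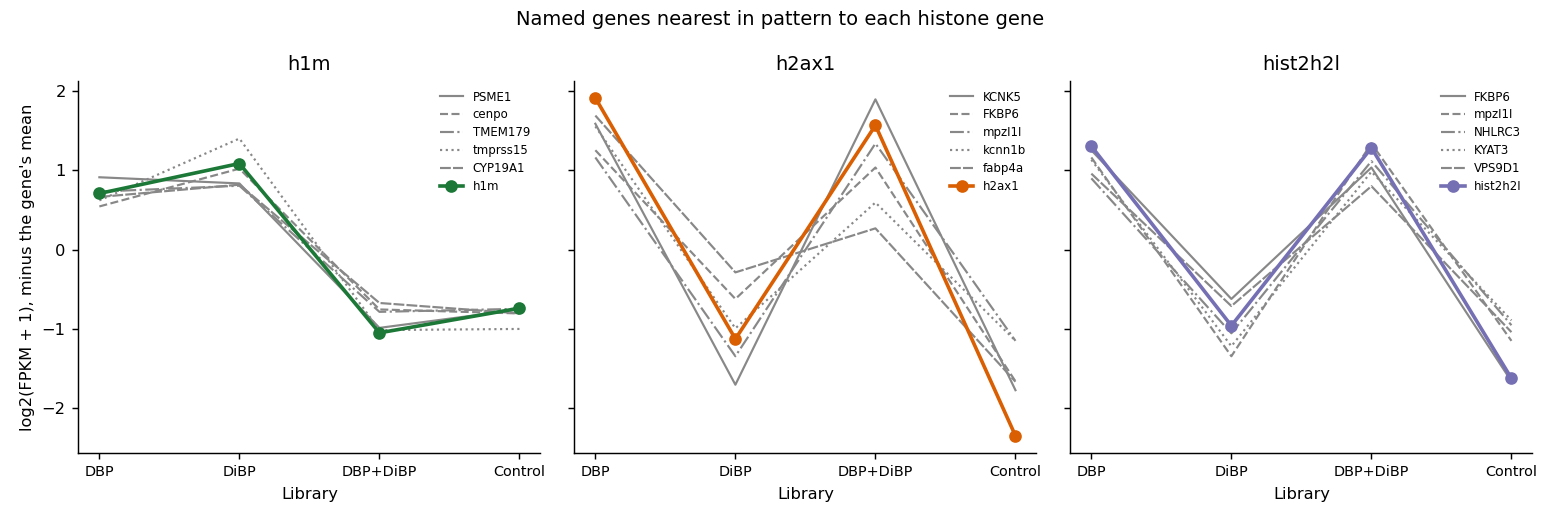
log2(FPKM + 1) minus the gene's own mean in the DBP, DiBP, combined and control libraries, for h1m, h2ax1 and hist2h2l (coloured) and the 5 named genes nearest to each (grey). The grey lines keep close to h1m and hist2h2l, with first distances of 0.33 and 0.43. They lie less close to h2ax1, whose control value is below theirs on this scale, though not in plain FPKM ratios for genes near 0.

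Genes that process, carry and modify histones were counted against the shares of all loci past the 2-fold limit, which were 4.81% higher and 3.31% lower for DBP, 7.25% higher and 7.04% lower for DiBP, and 3.48% higher and 3.23% lower for the combined library. Of 15 measured loci for histone mRNA processing 1 was at least 2-fold higher in DiBP and 0 in the other exposed libraries, and 0 were lower; the medians were 0.10 (DBP), -0.08 (DiBP) and 0.06 (both compounds). That locus was ERI1, an exonuclease that trims histone mRNA ends, at 38.5 FPKM in DiBP against 17.5 in the control. The stem-loop binding protein genes, which bind the end of histone mRNA, stayed within the 2-fold limit: slbp2, the form of the oocyte, was at 426 FPKM with DBP, 399 with DiBP, 311 with both compounds and 429 in the control.

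Of 32 measured histone chaperones 0 were 2-fold higher in any exposed library, and 1 was lower in DiBP and 1 in the combined library. The medians were 0.07 (DBP), -0.16 (DiBP) and -0.07 (both compounds). The one lower in DiBP was DAXX, a chaperone of H3.3, at 8.17 FPKM against 21.0 in the control, and the one lower in the combined library was npm1a, a nucleophosmin gene, at 42.0 FPKM against 100.6. The maternal nucleoplasmin npm2b was at 538 FPKM with DBP, 761 with DiBP, 332 with both compounds and 426 in the control. Its ratios to control stayed within the 2-fold limit, while the combined library over DiBP had a log2 ratio of -1.19.

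Genes that signal through H2A.X after DNA damage were measured at 21 loci. In the DBP library 1 was at least 2-fold higher and 0 lower (median 0.24), beside 4.81% and 3.31% of all loci. In the DiBP library 0 were higher and 1 lower (median -0.04), beside 7.25% and 7.04%. In the combined library 0 were higher and 1 lower (median 0.09), beside 3.48% and 3.23%. Counts of 0 or 1 among 21 loci are near these shares, so the genes named next are description only. A row of GADD45A, a damage-response gene, was at 17.2 FPKM with DBP, 3.38 with DiBP, 2.49 with both compounds and 6.10 in the control. It thus was high in DBP alone and did not follow h2ax1 into the combined library. The kinase gene ATR was at 1.23 FPKM in DiBP against 4.43 in the control. Of 39 measured histone-modifying enzymes 1 was lower in DiBP, KDM5A, a demethylase of H3, at 11.0 FPKM against 24.8 in the control, and 0 passed the limit in the other exposed libraries. Their medians were -0.05, -0.08 and -0.02.

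Replication genes, whose activity goes with histone synthesis in dividing cells, had medians of 0.16 (DBP), 0.03 (DiBP) and 0.01 (both compounds) over 34 loci. At least 2-fold higher were 1 of them in DBP (a row of RRM2, beside 4.81% of all loci), 4 in DiBP (the same row, GMNN, LIG1 and RPA3, beside 7.25%) and 0 in the combined library, and 0 were lower. That row of RRM2, a subunit of ribonucleotide reductase, was at 119.8 FPKM with DBP, 95.1 with DiBP, 25.0 with both compounds and 32.8 in the control. A second and more abundant RRM2 row was at 236 FPKM with DBP, 129 with DiBP, 187 with both compounds and 212 in the control, lowest in DiBP, so only the first had both single exposures above the rest as h1m did.

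Oocyte genes other than these histones had medians of 0.07 (DBP), -0.09 (DiBP) and -0.23 (both compounds) over 32 loci. Of these, 4 were at least 2-fold higher in DBP (NANOS3, figla, BTG4 and cldnd), beside 4.81% of all loci, and 2 in DiBP (cldnd and SYCP3), beside 7.25%. Lower were 2 in DiBP (NANOS3 and zpax4), beside 7.04%, and 1 in the combined library (NANOS3), beside 3.23%. The summed level of the list was 15276 FPKM with DBP, 14682 with DiBP, 11005 with both compounds and 12598 in the control. Of the defining markers NANOS3 was listed at 0 in the DiBP and combined libraries, and MOS in all but the DiBP library. cldnd, a claudin of the oocyte, was at 3301 FPKM with DBP, 3699 with DiBP, 1824 with both compounds and 1111 in the control. When all values were scaled so that the oocyte list had a median ratio of 0, h1m had log2 ratios of 1.39 (DBP), 1.92 (DiBP) and -0.08 (both compounds), h2ax1 had 4.21, 1.31 and 4.16, and hist2h2l had 2.88, 0.74 and 3.15. All kept their side of the 2-fold limit.

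Markers of other ovarian cells had lower summed levels than the oocyte list and went partly with the same libraries. Summed over 16 granulosa and theca loci the level was 167 FPKM with DBP, 118 with DiBP, 147 with both compounds and 121 in the control, with FSHR, inha, hsd3b1 and a row of FOXL2 listed at 0 in the control and that row also in DiBP. Of the 6 measured ones CYP19A1 was at least 2-fold higher in DBP (beside 4.81% of all loci) and in DiBP (beside 7.25%), and the medians were 0.41 (DBP), 0.36 (DiBP) and 0.22 (both compounds). The most abundant of them, a row of CYP11A1, was at 80.3 FPKM with DBP, 34.1 with DiBP, 67.3 with both compounds and 58.4 in the control, lowest in DiBP. hsd3b2 was at 36.6, 32.3, 41.6 and 35.2 FPKM in that order. Smooth muscle and vessel loci, 14 in all, summed to 44.2, 18.7, 11.6 and 10.4 FPKM in that order, and of the 4 measured ones 3 were at least 2-fold higher in DBP (acta2, TAGLN and a row of MYL9), beside 4.81% of all loci, and 1 in DiBP (that row of MYL9), beside 7.25%, with medians of 1.33 (DBP), 0.67 (DiBP) and 0.13 (both compounds). A row of TAGLN, a smooth muscle gene, was at 33.5 FPKM with DBP, 10.1 with DiBP, 6.79 with both compounds and 5.47 in the control. That row made up most of the DBP sum of the list. The remaining measured locus, a row of CLDN5, was at 0.806 FPKM with DBP and 1.15 in the control. Leukocyte loci (13) summed to 16.4, 13.7, 10.2 and 9.16 FPKM, stroma loci (10) to 6.61, 4.20, 5.01 and 3.58 FPKM, and erythrocyte loci (6) to 1.71, 2.28, 0.583 and 0.822 FPKM. The medians were 0.15, 0.46 and 0.15 over 4 measured leukocyte loci, of which cd74a was at least 2-fold higher in DBP (beside 4.81% of all loci), and 0.40, 0.02 and 0.38 at the 1 measured stroma locus, while 0 erythrocyte loci were measured. The leukocyte genes spi1a, CCR9 and a row of CXCR4 were listed at 0 in the control, CCR9 and that row also in the combined library, and mhc2dab in the DBP library. In the control hbaa1 and gata1a of the erythrocyte list and FLI1 and another row of CLDN5 of the vessel list were at 0 as well. Every one of these sums was higher in both single exposures than in the control except for granulosa and theca in DiBP. All but the erythrocyte sum were also higher in the combined library than in the control. The part of these cells in the levels of the histone genes was not tested.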

How the data were processed

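Ovarian mRNA of 4 zebrafish libraries, 1 per group, was analysed. Per the labels' protocols, RNA came from snap-frozen ovaries (RNeasy kit) and was made into NEBNext Ultra libraries read in pairs. The deposited values are FPKM, a unit read from the values because no header names it. For DiBP and the combined exposure the header of the values does not name the group. Each was taken as the sample it was recorded under. Per the submitters' processing notes, HISAT2, HTSeq 0.6.1 and build GRCz10 were used; settings, annotation and strand are not stated there.

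Symbols came from an identifier table (26996 of 35066 Ensembl rows matched). Loci were formed from all 49610 rows and not from the Ensembl rows alone. Rows above 0 that shared all 4 values were collapsed, which gave 35253 loci. Of these, 13859 had a mean of at least 1 FPKM. Ratios are of FPKM + 1 on the log2 scale, with 2-fold as the limit for naming a difference. The design gave a choice between FPKM and counts, and FPKM applied. With 1 library per group no test was made, and depth gives no interval.

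The histone genes and the 15 gene lists were chosen with earlier results of these data known. A list symbol was also matched without its paralog letter where the table lacks it. Named genes were the 5 nearest in pattern, the 5 neighbours on each side, histone rows with a mean of at least 5 FPKM, and up to 3 genes per list and comparison with the largest ratio; h1l1, slbp2, zp2.1, RPA3, BTG4, zpax4 and the markers listed at 0 were named after their values were seen where the rule did not take them. One histone gene is not reported here by name, a planned list of short proteins was not analysed here, and no sequences were used. The code was tested on simulated data. Python 3.11.15, numpy 2.4.6, pandas 2.3.3 and matplotlib 3.10.9 were used.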

Additional observations from a re-analysis of the deposited data

Results flagged for a closer look

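The response to one compound had opposite signs without and with the other compound, and with 1 library per group this difference was not tested. For h1m the log2 ratio was 1.83 for DiBP over control and -1.76 for the combined library over DBP. Likewise it was 1.45 for DBP over control and -2.14 for the combined library over DiBP. Both pairs of contrasts come from the same 4 libraries, so the second restates the first and is no further instance. Since h1m was picked on these same levels, for being higher after either compound alone, the opposite signs are description only. Of all measured loci, 149 (1.08%) were at least 2-fold higher with DiBP alone and at least 2-fold lower when the combined library was set against DBP, which is 14.8% of the 1005 loci higher with DiBP alone. For DBP the count was 145 loci (1.05%), or 21.7% of the 667 higher with DBP alone.

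For h2ax1 the log2 ratio was 1.23 for DiBP over control and -0.35 for the combined library over DBP. For hist2h2l the values were 0.67 and -0.021. The second value of h2ax1 and both values of hist2h2l lie within the 2-fold limit. The second value of hist2h2l ran from -0.02 to 0.27 under the settings tried, so its opposite sign did not hold.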

How the results depend on the processing

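The log2 ratios of h1m, h2ax1 and hist2h2l kept their side of the 2-fold limit in all 6 pairs of libraries under a pseudocount of 0.1, equal totals, median-of-ratios scaling, equal totals without the 50 most abundant loci and scaling to the oocyte list. Their ranges were 1.35 to 1.45 (h1m, DBP over control), 1.67 to 1.92 (h1m, DiBP over control), -0.31 to -0.08 (h1m, combined over control), 4.18 to 4.42 (h2ax1, DBP over control), 1.07 to 1.32 (h2ax1, DiBP over control), 3.93 to 4.16 (h2ax1, combined over control), 2.84 to 3.29 (hist2h2l, DBP over control), 0.53 to 0.83 (hist2h2l, DiBP over control) and 2.92 to 3.27 (hist2h2l, combined over control). The ratio of hist2h2l in the combined library over DBP, within the limit throughout, changed sign with the scaling (-0.02 to 0.27). The median of the other histone loci moved by at most 0.3 under every setting run and stayed between 0.39 and 0.61 for DiBP, but changed sign for DBP (-0.07 to 0.05) and for the combined library (-0.27 to 0.04). Scaling moved the median of all loci for DiBP to -0.19 with equal totals, and for the combined library to 0.12 when scaled to the oocyte list. Of the medians of the other lists, 329 values under an alternative lay within 0.3 of the reported one and 13 did not, all on lists of 2 to 4 measured loci. The smooth muscle and vessel median for DBP, 1.33 as reported, was 0.31 with no filter and 2.41 at a mean of at least 5 FPKM, and the linker histone median for DBP was 1.68 with a pseudocount of 0.1.

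The share of all loci past the limit, the background of the counts, depended more on the settings. With a pseudocount of 0.1, the share higher was 7.89% (DBP over control), 6.21% (combined over control), 6.11% (DiBP over DBP), 4.91% (combined over DBP) and 7.53% (combined over DiBP). With a pseudocount of 0.1, the share lower was 5.69% (DBP over control), 10.8% (DiBP over control), 6.01% (combined over control), 6.93% (DiBP over DBP), 7.59% (combined over DBP) and 9.23% (combined over DiBP). With equal totals, the share higher was 6.64% (combined over DiBP). With equal totals, the share lower was 3.93% (combined over DiBP). Scaled to the oocyte list, the share higher was 4.74% (combined over DBP). Scaled to the oocyte list, the share lower was 2.81% (combined over DBP). At a mean of at least 5 FPKM, the share higher was 3.13% (DBP over control), 2.14% (combined over control), 2.43% (DiBP over DBP) and 1.83% (combined over DBP). With no filter, the share higher was 2.49% (DBP over control), 3.92% (DiBP over control), 1.83% (combined over control), 2.31% (DiBP over DBP), 1.5% (combined over DBP) and 2.19% (combined over DiBP). With no filter, the share lower was 1.63% (DBP over control), 3.22% (DiBP over control), 1.6% (combined over control), 2.17% (DiBP over DBP), 2.26% (combined over DBP) and 3.17% (combined over DiBP). Depth in fragments is unknown and sets no interval here. No paired analysis was possible because each group has 1 library.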
